A study of Mus musculus with 30 samples.

Results

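The change at 16 h that both genotypes of the series had in common was measured on 12 of its 30 arrays, the 6 labelled 16 hpO and the 6 labelled 0 h. The 30 arrays, 3 for each genotype and time, cover mouse olfactory epithelium at 0, 2, 8, 16 and 48 h in a study of bilateral olfactory bulbectomy, an operation that takes out the olfactory bulbs on both sides. The 12 arrays fall into 4 groups of 3: SR-A mutant at 16 h, wild type at 16 h, SR-A mutant at 0 h and wild type at 0 h, all from mice of 6 weeks with the epithelium microdissected. Msr1 encodes SR-A, a scavenger receptor of macrophages. The allele, its promoter and the strain are not given in the labels. Nor do they state what the 0 h mice had undergone, so any effect of anaesthesia, of handling or of the time of day cannot be told apart from that of the lost bulb. Nothing in the labels ties each array to a mouse of its own, and p-values therefore reflect only how these arrays scatter, some of which may be technical.

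The olfactory epithelium holds sensory neurons whose axons end in the olfactory bulb, sustentacular cells that support and detoxify, and basal stem cells that replace lost neurons. Removing the bulb cuts those axons and deprives the neurons of their target, after which mature neurons die, macrophages arrive and basal cells divide. Injured tissue commonly switches on acute phase and antioxidant genes, while immediate early genes such as Fos answer within minutes to neuronal activity, growth factors and stress and are shut off again quickly.

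Values are MAS5 signals of the Affymetrix MG-U74Av2 array, in linear intensity units with 1 value for each probe set, a group of short probes for 1 transcript. The deposited signals share 1 scale, their trimmed means lying between 1500.7 and 1500.8 on the 12 arrays. Before log2 was taken, any signal under 113.7 was raised to this floor. The 6643 probe sets bright enough on at least 3 of the 12 arrays were tested, standing for 5185 genes where 1 gene is named. A probe set could pass on the arrays of 1 time alone. Among others, Calb1 and Ccn1 did so at 0 h and Tfrc, Ptger2, Ampd3, Dpep1 and Ccr2 at 16 h. Changes below are log2(16 h) minus log2(0 h) ± standard error from limma, with genotype as a covariate and 6 arrays at each time. A probe set was called where the limma p, Benjamini-Hochberg adjusted over all 6643, was under 0.05. In bulk tissue, fewer cells of a type and less RNA per cell cannot be told apart.

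Msr1, the targeted gene, was dim on both of its probe sets, neither of which was tested, and it does not check the labels. The dimmer one averaged 180.5 at 16 h and 152.0 at 0 h, with 3 arrays at the floor at each time, and is not split by genotype here. The brighter one read 427.6, 444.5 and 373.5 on SR-A mutant arrays at 16 h and 143.0, 32.6 and 204.0 on wild type arrays at 16 h. At 0 h it read 543.9, 548.5 and 451.2 on SR-A mutant arrays and 161.0, 83.1 and 173.8 on wild type arrays. It was higher under the mutant label throughout, where a lost transcript would be lower, and the labels do not place its probes relative to the mutation. Genotype names below are therefore those of the labels.

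The tissue markers were those of olfactory epithelium. Omp, the olfactory marker protein of mature sensory neurons, spanned 23187 to 40155 at 16 h with a median of 31115, and 27106 to 36516 at 0 h with a median of 32188.5. The channel subunit Cnga2 and the adenylyl cyclase Adcy3 of the same neurons were also bright on all 12 arrays. The horizontal basal cell keratin Krt14 and the related Krt15 were at the floor on all 12, and Krt5 on 4 arrays at 16 h and on all 6 at 0 h, so that these basal cells are marked here by Trp63 and Itga6 alone. Skeletal muscle markers were dim, with none of 4 tested, whereas the bone markers Col1a1, Ibsp and Acp5 and the red blood cell gene Hba-a1 were bright. Among 13 sets of cell type markers only Krt18 and Krt8 of the sustentacular set were called at 16 h.

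At 16 h, 681 of the 6643 probe sets differed from 0 h, which is 10.3% of those tested, and 1671 had an unadjusted p under 0.05. Of the 681 called, 343 were higher at 16 h (5.16%) and 338 lower (5.09%). The called rises had a median of 0.41 and the called falls of -0.44, beside a median of -0.01 over all tested probe sets, so most changes were small. At least 2-fold differences numbered 51, of which 27 were rises and 24 falls. In 219 called probe sets, 3.3% of those tested, the 6 arrays at 16 h did not overlap the 6 at 0 h. Leaving out wild type 16 h replicate 1 gave 412 calls, leaving out wild type 16 h replicate 2 gave 444 and leaving out wild type 0 h replicate 3 gave 419.

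**Figure D1:**
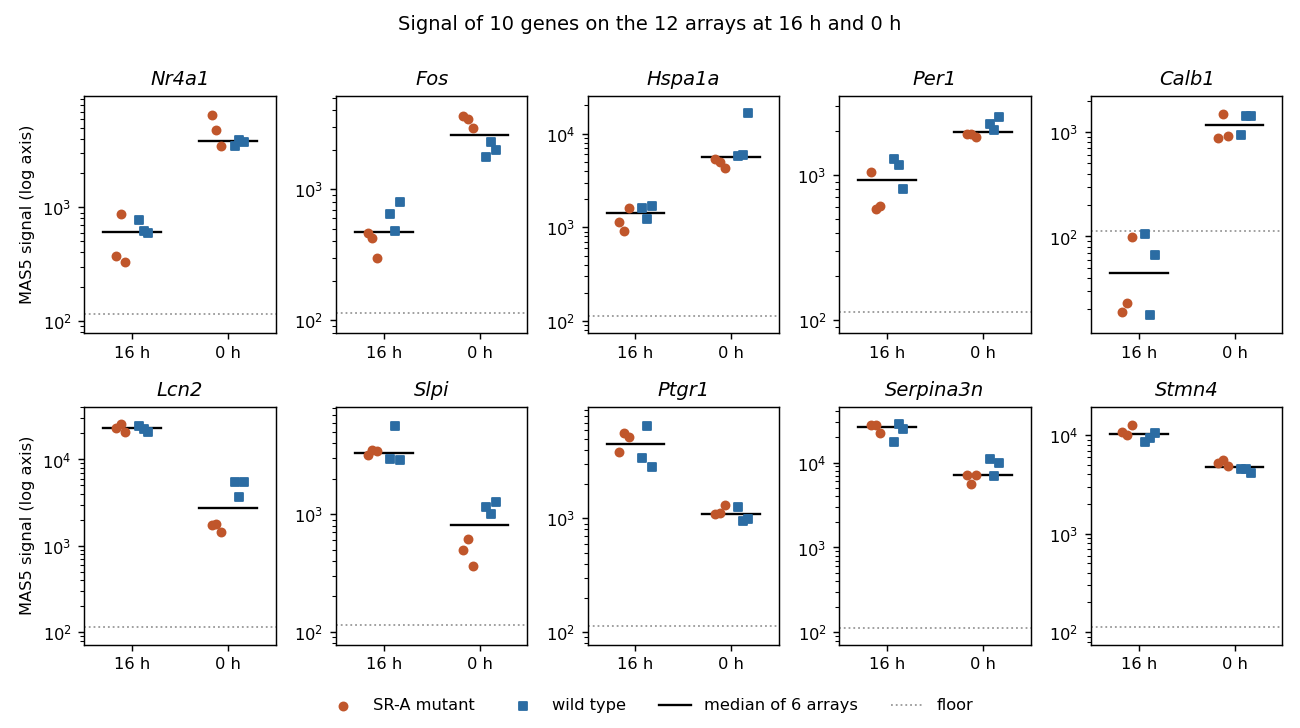
MAS5 signal, on a log axis, of 10 genes on each of the 6 arrays at 16 h (left in each panel) and the 6 at 0 h (right), with circles for SR-A mutant, squares for wild type, a bar for the median of the 6 and a dotted line for the floor of 113.7. Nr4a1, Fos, Hspa1a, Per1 and Calb1 were lower and Lcn2, Slpi, Ptgr1, Serpina3n and Stmn4 higher at 16 h, and in none of the 10 do the 2 times overlap.

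Immediate early genes were lower at 16 h than at 0 h. Of 23 tested members 10 fell and 1 rose, so that 47.8% of the list was called, and the median change was -0.36. Over all genes 5.01% fell and 5.52% rose, 10.5% in all, which is the background for each list below. The sum of their signals ran from 61049 to 64819 at 16 h and from 79789 to 100027 at 0 h. The genes that fell encode transcription factors, a phosphatase, an RNA-decay protein and a secreted matrix protein, and a few of their promoters, in which the cAMP response element (CRE) core is a known target of CREB-family factors, are printed here because these genes moved together.

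Shown are the 150 bases before the annotated start, 5′ to 3′, from RefSeq (GRCm38.p6), with matches to the CRE core TGACG on either strand in capitals. The Fos window is chr12:85473740-85473889 on the plus strand, Fosb chr7:19310046-19310195 on the minus strand, Nr4a1 chr15:101266696-101266845 on the plus strand, at an annotated start inside the gene's span, and Dusp1 chr17:26508473-26508622 on the minus strand.
Fos: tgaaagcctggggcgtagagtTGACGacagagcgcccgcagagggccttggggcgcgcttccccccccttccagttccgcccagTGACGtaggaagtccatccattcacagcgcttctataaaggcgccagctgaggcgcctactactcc
Fosb: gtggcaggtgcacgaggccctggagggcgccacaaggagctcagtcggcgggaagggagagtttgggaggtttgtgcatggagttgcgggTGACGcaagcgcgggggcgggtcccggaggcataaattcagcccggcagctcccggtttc
Nr4a1: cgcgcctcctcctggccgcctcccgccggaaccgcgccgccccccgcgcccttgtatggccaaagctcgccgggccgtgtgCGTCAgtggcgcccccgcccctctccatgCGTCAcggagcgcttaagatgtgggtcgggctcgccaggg
Dusp1: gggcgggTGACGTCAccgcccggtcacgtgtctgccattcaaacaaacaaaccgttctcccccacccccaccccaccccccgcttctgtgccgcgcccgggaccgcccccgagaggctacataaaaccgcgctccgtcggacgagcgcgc

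Fos and Nr4a1 each hold 2 matches, 129 and 66 bases and 69 and 40 bases before the start, Fosb 1 at 60 bases, and in Dusp1 the 2 matches overlap to form the full palindrome TGACGTCA. Of the 10 immediate early genes that fell 8 have a window in the promoter table, and 7 of those hold the core within 250 bases, namely Fos, Fosb, Junb, Nr4a1, Atf3, Ccn1 and Dusp1. The core occurs in 20.2% of 17491 protein-coding promoters of that length, and the full CRE, which overlaps it, in 1.98%. A match is a description of the sequence and not of a bound factor.

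Nr4a1, an orphan nuclear receptor induced by activity and stress, had the largest fall of the list. Its signal at 16 h was 332.4 at the lowest, 606.0 at the median and 867.2 at the highest, against 3456.4, 3856.2 and 6600.5 at 0 h. Every 16 h array thus lay far under every 0 h array, a change of -2.92 ± 0.24 (adjusted p = 3.64e-05), or 7.57-fold lower.

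Fos, a subunit of the AP-1 transcription factor (chr12:85473890-85477274, GRCm38.p6), read 298.1 to 805.2 at 16 h with a median of 473.0, and 1753.7 to 3638.9 at 0 h with a median of 2620.6. The groups did not overlap, and the change was -2.38 ± 0.24 (adjusted p = 0.000135). Atf3, a stress-induced CREB-family factor also known as a marker of injured neurons, read 653.8 to 736.1 at 16 h and 1739.6 to 4253.4 at 0 h, a change of -1.81 ± 0.19 (adjusted p = 0.000152), and its second tested probe set fell too, with 2 of its 16 h arrays at the floor (-1.75 ± 0.23, a value the floor limits). The zinc finger factor Egr1 fell by 1.57 ± 0.23 (adjusted p = 0.00139), with 321.0 to 752.7 at 16 h against 1277.8 to 2707.8 at 0 h. Ccn1, a secreted matricellular protein, fell by 1.68 ± 0.22 (adjusted p = 0.000581), with 132.7 to 298.2 against 511.8 to 999.0. None of these genes had a 16 h array inside the 0 h range.

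Smaller falls passed the test for Fosb (-1.09), the mRNA-decay protein Zfp36 (-0.98), Ier2 (-0.66), the MAP kinase phosphatase Dusp1 (-0.62) and Junb (-0.50). The AP-1 genes Jun (-0.30, adjusted p = 0.093) and Jund (-0.09, adjusted p = 0.611) did not pass it. Gadd45b, a stress-induced growth arrest protein, was the 1 member to rise, by 0.82 (adjusted p = 0.0019). The count of falls stayed between 9 and 11 when each array was left out in turn.

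Heat shock chaperones, which refold proteins and are induced by heat and proteotoxic stress, were lower too. Of 20 tested members 6 fell (30%, beside 5.01% of all genes) and none rose, with a median of -0.23. The inducible Hsp70 genes Hspa1a and Hspa1b led them, and their promoters are shown beside that of Dnaja1 for the heat shock element, the DNA motif of heat shock factors.

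The 150 bases before the RefSeq start follow, with matches to GAANNTTC, on either strand, in capitals. Hspa1a is chr17:34972157-34972306 and Hspa1b chr17:34959239-34959388, both on the minus strand, and Dnaja1 is chr4:40722318-40722467 on the plus strand (GRCm38.p6).
Hspa1a: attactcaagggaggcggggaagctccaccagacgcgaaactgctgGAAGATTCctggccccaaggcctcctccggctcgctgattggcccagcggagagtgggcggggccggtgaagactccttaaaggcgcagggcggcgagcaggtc
Hspa1b: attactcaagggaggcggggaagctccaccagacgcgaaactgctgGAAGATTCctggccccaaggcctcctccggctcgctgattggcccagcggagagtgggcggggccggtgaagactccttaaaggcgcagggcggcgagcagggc
Dnaja1: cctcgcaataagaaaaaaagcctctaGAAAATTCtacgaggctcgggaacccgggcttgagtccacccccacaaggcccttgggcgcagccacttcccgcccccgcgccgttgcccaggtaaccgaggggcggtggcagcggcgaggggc

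The Hspa1a and Hspa1b windows are identical at 149 of 150 bases and at 247 of the full 250, and each holds 1 match 104 bases before the start. These genes are near-identical neighbours, so their probe sets may share signal and are not certain to be separate measurements. Dnaja1 holds a match 124 bases before the start. Of the 5 chaperone genes that fell and have a window, 3 hold the element, beside 6.35% of all promoters.

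Hspa1a read 914.1 to 1677.9 at 16 h with a median of 1417.8, and 4254.8 to 16558.3 at 0 h with a median of 5571.7. Even the highest 16 h array was below the lowest 0 h array, and 1 wild type array at 0 h stood far above the other 5. The change was -2.25 ± 0.24 (adjusted p = 0.000156) for Hspa1a and -1.81 ± 0.21 (adjusted p = 0.000247) for Hspa1b. Dnajb1, an Hsp40 co-chaperone, read 1104.5 to 1677.7 at 16 h and 2285.2 to 4827.0 at 0 h, a change of -1.03 ± 0.17 (adjusted p = 0.00244). The Hsp70-Hsp90 adaptor Stip1 (-0.46), Dnaja1 (-0.45) and the constitutive Hspa8 (-0.34) fell less. Hsp90aa1 (-0.19, adjusted p = 0.405) and the mitochondrial Hspd1 (0.03, adjusted p = 0.899) did not pass the test. Stip1 lost its call without SR-A mutant 0 h replicate 1 or wild type 16 h replicate 1. Unfolded protein response genes of the endoplasmic reticulum were not called, with 0 of 19 in either direction and a median of -0.08.

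Several core clock genes and genes induced by glucocorticoids were lower at 16 h. Of 13 clock genes 5 fell and none rose (38.5% called, median -0.30). Of 16 glucocorticoid-induced genes 6 fell and 1 rose (43.8% called, median -0.21), beside 10.5% of all genes called. In wild type 6 of these 16 fell and in SR-A mutant 5, but the list medians were -0.59 and 0.09. The difference between genotypes was called for 2 of the 16, beside 1.34% of all probe sets. Per1, a clock repressor that glucocorticoids also induce and that stands on both lists, read 580.0 to 1280.5 at 16 h with a median of 923.4, and 1819.2 to 2511.5 at 0 h with a median of 1976.8. The 2 times did not overlap, and the change was -1.24 ± 0.16 (adjusted p = 0.000515). The repressors Nfil3 (-0.75 ± 0.18, adjusted p = 0.0196) and Bhlhe40 (-0.48 ± 0.10, adjusted p = 0.00929) fell as well, each with overlapping arrays. Per2 (-0.30) and Cry1 (-0.21) passed narrowly and lost their call in 9 and 10 of the 12 fits that left out 1 array, so that the clock count dropped to 3 in 8 of those fits. The activators Clock (0.20, adjusted p = 0.0768) and Arntl (-0.06, adjusted p = 0.699) did not pass. The labels give no hour of day, and its part in these values was not tested.

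Among the other glucocorticoid-induced genes, Errfi1, a feedback inhibitor of the EGF receptor, read 1944.9 to 2985.0 at 16 h and 3303.1 to 5650.0 at 0 h (-0.89 ± 0.13, adjusted p = 0.00114), with -0.67 on its other probe set. Ddit4, an inhibitor of mTOR signalling, read 2173.9 to 3286.0 at 16 h and 3957.0 to 5483.8 at 0 h (-0.70 ± 0.11, adjusted p = 0.00203). Klf9 (-0.66), Cebpd (-0.79) and Dusp1 (-0.62) fell, with Cebpd losing its call in 10 of 12 fits that left out 1 array. Anxa1, an anti-inflammatory annexin that the hormone also induces, went the other way and rose by 0.66 ± 0.08 (adjusted p = 0.000304). Its arrays spanned 18954 to 25464 at 16 h and 11764 to 16635 at 0 h without overlap, and its 2 other probe sets gave 0.62 and 0.90.

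Extracellular matrix genes had more called falls than any other list. Of 26 tested members 13 fell and 1 rose, 53.8% of the list beside 10.5% of all genes, with a median of -0.35. Col3a1, a fibrillar collagen of connective tissue, read 3820.3 to 5361.3 at 16 h with a median of 4127.8, and 6052.9 to 8948.2 at 0 h with a median of 7445.6. That is a change of -0.78 ± 0.10 (adjusted p = 0.000458) with no overlap, and 2 further probe sets gave -1.11 and -0.95. The small proteoglycan Ogn (-0.77), Col11a1 of cartilage (-0.73), Col6a3 (-0.67), elastin, encoded by Eln (-0.66), and Thbs2 (-0.64) fell by similar amounts.

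The falls of Col1a2 (-0.49), Lum (-0.47), Sparc (-0.42), Col6a1 (-0.35), Col18a1 (-0.35), Bgn (-0.34) and Fn1 (-0.31) were smaller. Col1a1, the partner chain of Col1a2 and a marker of bone, did not pass (-0.13, adjusted p = 0.354), nor did the bone marker Ibsp (0.06, adjusted p = 0.778). Lox, which crosslinks collagen, was the 1 rise (0.33, adjusted p = 0.0407). The matrix count ran from 10 to 16 when each array was left out in turn. How much stroma each dissection carried was not measured, and its part in these values was not tested. Beside the matrix genes, Timp3, a metalloprotease inhibitor bound to matrix, fell by 0.48 ± 0.09 (adjusted p = 0.00759), and Igfbp2, a binding protein for insulin-like growth factors, by 0.90 ± 0.13 (adjusted p = 0.000867).

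The largest fall of all was that of Calb1, calbindin-D28k, a calcium buffer of many neurons (chr4:15881264-15906709). All 6 arrays at 16 h were at the floor, with deposited signals of 17.7 to 106.5, against 882.4 to 1492.4 at 0 h with a median of 1175.4. The signal was at least 10.1-fold lower at 16 h (-3.34 ± 0.14 after flooring, adjusted p = 2.08e-08). Calb1 passed the brightness filter through its 0 h arrays alone, and under a filter on mean signal it was not tested. None of the other 6 tested members of its calcium-binding list was called.

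Enzymes of xenobiotic phase I metabolism, in which the epithelium is rich, fell in 3 of 19 cases (15.8%, beside 5.01% of all genes) with none up. Cyp1a1, an enzyme induced through the aryl hydrocarbon receptor, read 591.1 to 1392.2 at 16 h and 1612.8 to 3058.7 at 0 h (-1.40 ± 0.19, adjusted p = 0.000862). The flavin monooxygenase Fmo5 read 903.5 to 1297.9 at 16 h and 1885.3 to 2650.2 at 0 h (-1.01 ± 0.11, adjusted p = 0.000152). Cyp1a2, which shares that receptor, fell by 0.54 ± 0.09 with overlapping arrays. Outside the lists the linker histone H1f2 fell by 1.27 ± 0.17 (adjusted p = 0.00062), with 1638.6 to 3458.6 at 16 h against 4759.4 to 8003.1 at 0 h.

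**Figure D2:**
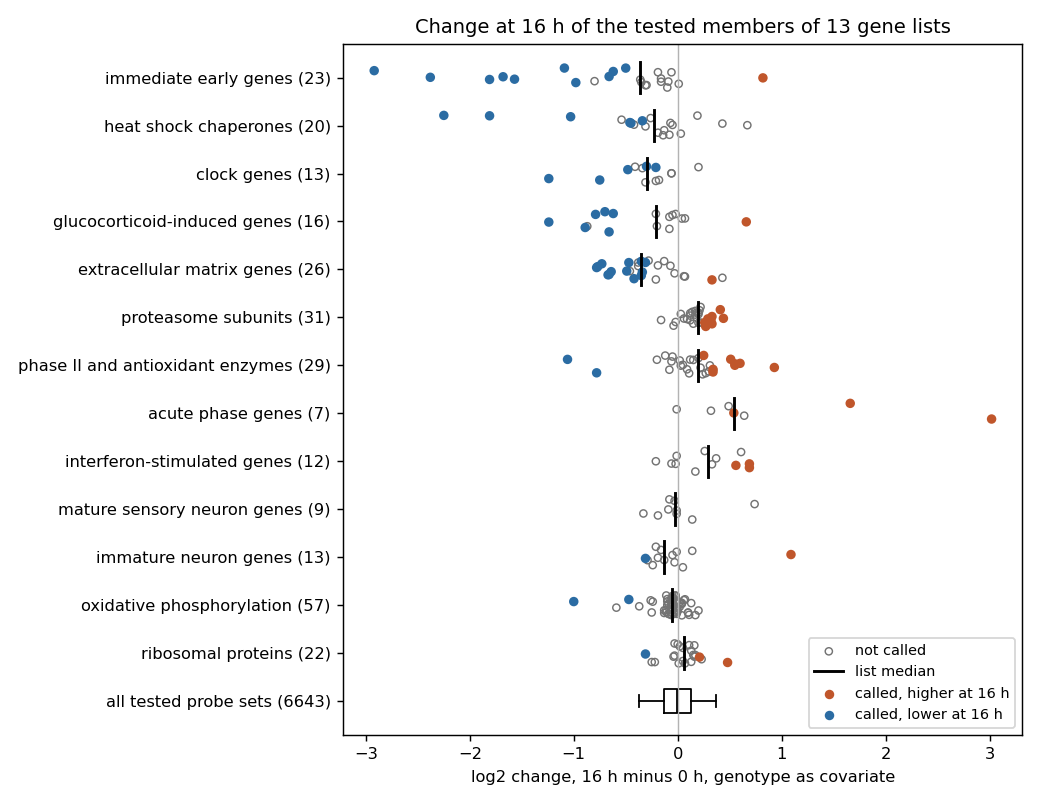
Log2 change (16 h minus 0 h, genotype as covariate) of the tested members of 13 gene lists, with the number tested in brackets, filled points for called members, open points for the others and a bar for each list's median; the box at the bottom gives the quartiles of all 6643 tested probe sets, with whiskers at the 5th and 95th percentiles. Members of the immediate early, heat shock, clock, glucocorticoid and matrix lists lie mostly below 0 and proteasome subunits mostly above it, while neuronal and oxidative phosphorylation genes lie near 0.

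Rises were led by acute phase genes, secreted proteins of injury and infection. Of 20 members on the array only 7 were bright enough to be tested. Of these 7, 3 rose (42.9%, beside 5.52% of all genes) and none fell, with a median of 0.54. In each genotype alone 3 rose, where 5.4% of all genes rose in wild type and 2.85% in SR-A mutant. The list medians were 1.17 in wild type and 0.15 in SR-A mutant. The sum of the 7 signals ran from 58087 to 72932 at 16 h and from 19403 to 34421 at 0 h. Lcn2, which binds iron-carrying bacterial siderophores (chr2:32384637-32387739), read 20620 to 25855 at 16 h with a median of 23056.5, and 1464.1 to 5458.8 at 0 h with a median of 2735.2. It was 8.12-fold higher (3.02 ± 0.24, adjusted p = 2.98e-05), though its other probe set, dim and not tested, gave 0.11. Serpina3n, a serine protease inhibitor, read 17266 to 28687 at 16 h and 5563.7 to 11121 at 0 h (1.66 ± 0.17, adjusted p = 0.000135).

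Slpi, an antiprotease of mucosal surfaces, rose on both tested probe sets but by unequal amounts. On one it read 2903.9 to 5615.5 at 16 h and 361.8 to 1281.0 at 0 h (2.24 ± 0.23, adjusted p = 0.000145). On the brighter one it read 3507.4 to 4964.3 at 16 h and 2318.5 to 3321.9 at 0 h (0.54 ± 0.11, adjusted p = 0.00967). Ceruloplasmin, encoded by Cp (0.64, adjusted p = 0.051), and haptoglobin, encoded by Hp (0.49, adjusted p = 0.505), did not pass. Clu, the extracellular chaperone clusterin, read 10064 to 17649 at 16 h and 6479.0 to 8062.7 at 0 h (0.96 ± 0.12, adjusted p = 0.000497), and its second probe set gave 0.89.

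Epithelial injury genes rose in 3 of 12 cases (25%, beside 5.52% of all genes), or in 5 without SR-A mutant 0 h replicate 3. Sprr1a, a cornified envelope protein that axotomised neurons also make, read 1361.2 to 5741.4 at 16 h and 760.4 to 1329.9 at 0 h (1.72 ± 0.29, adjusted p = 0.00301), with a wide spread at 16 h. Anxa1 was described above, and the smaller rise of Anxa2 (0.41) lost its call in 11 of 12 fits that left out 1 array. Sat1, which acetylates polyamines and is induced by many stresses, rose by 0.83 ± 0.12 (adjusted p = 0.000921) with overlapping arrays. The pro-apoptotic Bcl2l11, encoding Bim, read 2353.9 to 2642.6 at 16 h and 1521.3 to 1946.9 at 0 h (0.52 ± 0.07, adjusted p = 0.000977). It was the 1 call among 16 apoptosis genes, and its other probe sets, dim and not tested, gave 0.12 and 0.27.

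Detoxifying and antioxidant enzymes changed in both directions. Of 29 tested phase II and antioxidant genes 8 rose and 2 fell (34.5% called, beside 10.5% of all genes), with a median of 0.20. The selenium-dependent glutathione peroxidase Gpx2 read 12742 to 13994 at 16 h and 4131.9 to 11938 at 0 h (0.93 ± 0.16, adjusted p = 0.00432). Gstp1 (0.60), Gsta4 (0.55), Nqo1 (0.55), Gstm3 (0.51), Txn1 (0.34), Gsta3 (0.34) and Gstm1 (0.25), which conjugate or reduce reactive compounds, rose as well. Haem oxygenase Hmox1 went the other way, with 5953.6 to 11881 at 16 h and 15344 to 26036 at 0 h (-1.06 ± 0.18, adjusted p = 0.00311), and so did Srxn1, which repairs oxidised peroxiredoxins (-0.78 ± 0.18, adjusted p = 0.0189).

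The count of rises among these enzymes depended on single arrays. It was 4 without SR-A mutant 0 h replicate 1, wild type 0 h replicate 3 or wild type 16 h replicate 1, and 5 without SR-A mutant 0 h replicate 2 or 3, SR-A mutant 16 h replicate 3, wild type 0 h replicate 1 or wild type 16 h replicate 2. Outside the list, Ptgr1, a reductase of prostaglandins and lipid aldehydes (chr4:58965590-58987131), read 2852.1 to 6557.3 at 16 h with a median of 4576.1, and 952.8 to 1319.5 at 0 h with a median of 1099.5. It was 3.97-fold higher (1.99 ± 0.18, adjusted p = 6.31e-05), with no overlap. The aldo-keto reductase Akr1b8 read 3566.3 to 4232.9 at 16 h and 979.7 to 2242.8 at 0 h (1.27 ± 0.14, adjusted p = 0.000212).

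Proteasome subunits, the parts of the complex that degrades ubiquitin-tagged proteins, rose by small and similar amounts where they were called. Of 31 tested members 11 rose (35.5%, beside 5.52% of all genes) and none fell, 28 had a positive change, and the median was 0.20. Psmd10 (0.44 ± 0.12, adjusted p = 0.0347) and Psma5 (0.41 ± 0.08, adjusted p = 0.00613) changed most. Psma5, a subunit of the core's outer ring, read 5863.7 to 8687.7 at 16 h and 4857.7 to 5710.3 at 0 h, and Psma1 3486.8 to 4451.8 against 2935.1 to 3475.9, neither with an overlap. The catalytic subunits Psmb5 (0.26) and Psmb6 (0.27) rose, as did Psmb10 of the immunoproteasome (0.33). Psmd10 and Psmb10 lost their calls in 7 and 9 of the 12 fits that left out 1 array. The count was 6 without wild type 0 h replicate 3 or wild type 16 h replicate 1, and 7 without SR-A mutant 0 h replicate 1, wild type 0 h replicate 1 or wild type 16 h replicate 2. Of 22 ribosomal proteins 2 rose and 1 fell (13.6% called, median 0.06), and of 57 oxidative phosphorylation genes 0 rose and 2 fell (3.51% called, median -0.05), beside 10.5% of all genes called.

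Interferon-stimulated genes rose in 3 of 12 cases (25%, beside 5.52% of all genes) with none down and a median of 0.29. In wild type alone 5 of the 12 rose (median 0.51), where 5.4% of all genes rose. In SR-A mutant 1 rose (median 0.05), where 2.85% of all genes rose. The difference between genotypes was called for 1 of the 12, beside 1.34% of all probe sets. Irf1, a transcription factor induced by interferon-gamma, read 969.9 to 1320.6 at 16 h and 617.4 to 773.8 at 0 h (0.69 ± 0.10, adjusted p = 0.000977). The GTPase Iigp1 (0.69 ± 0.17, adjusted p = 0.0208) and the RNA-binding Ifit1 (0.56 ± 0.15, adjusted p = 0.0313) had overlapping arrays. Neither was called in SR-A mutant alone (0.42 and 0.35). Ifit1 lost its shared call in 7 of 12 fits that left out 1 array, and without wild type 16 h replicate 1 the count was 1. Ifit1 is shown as the called member whose promoter holds the core of the interferon-stimulated response element, here in capitals, at chr19:34640739-34640888 on the plus strand (GRCm38.p6, RefSeq).
Ifit1: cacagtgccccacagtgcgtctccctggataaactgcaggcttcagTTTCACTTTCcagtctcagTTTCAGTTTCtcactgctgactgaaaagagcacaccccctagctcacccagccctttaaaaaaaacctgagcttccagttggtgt

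Ifit1 holds 2 matches, 104 and 85 bases before the start, and 3.04% of all promoters hold at least 1 within 250 bases. The Irf1 window holds none. Of 9 MHC class I and immunoproteasome genes, Psme1 (0.32) and Psmb10 (0.33) rose (22.2%) and none fell. Psme1, an activator cap of the proteasome, lost its call without SR-A mutant 0 h replicate 1, wild type 0 h replicate 3 or wild type 16 h replicate 1. In the MHC class II list, H2-Eb1 fell by 0.59 ± 0.15 (adjusted p = 0.0265) and lost its call in 7 of the 12 fits that left out 1 array.

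Of 14 cytokines and receptors 3 rose (21.4%) and of 6 chemokines 1 rose (16.7%), beside 5.52% of all genes, and none fell. Among the cytokines and receptors, Osmr, the oncostatin M receptor, read 1107.3 to 2189.2 at 16 h and 495.8 to 988.5 at 0 h (1.08 ± 0.18, adjusted p = 0.00288). Its co-receptor Il6st rose by 0.37 ± 0.07 (adjusted p = 0.0084), though another Il6st probe set, dim and not tested, gave 0.07. Il13ra1 (0.42) lost its call in 8 of 12 fits that left out 1 array. The called chemokine was Ccl9, with 3817.6 to 7795.9 at 16 h and 1907.6 to 2672.6 at 0 h (1.36 ± 0.16, adjusted p = 0.000339). Ccr2, the receptor that draws monocytes, read 480.1 to 853.2 at 16 h and 225.0 to 358.5 at 0 h (1.12 ± 0.14, adjusted p = 0.00052).

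Of 11 macrophage genes 1 rose (9.09%) and of 7 neutrophil genes 1 fell (14.3%), beside 5.52% of all genes rising and 5.01% falling. Cd68 of macrophages did not pass (0.05 ± 0.10, adjusted p = 0.774), nor did Csf1r (-0.03) or Lyz2 (0.66, adjusted p = 0.0928). The called macrophage gene was Ctss, a lysosomal protease (0.29), and it lost that call in 10 of 12 fits that left out 1 array. The summed signal of the 5 macrophage markers was 10737 to 16477 at 16 h and 7469 to 14181 at 0 h, and the macrophage marker Adgre1 was at the floor on 3 arrays at 16 h and 2 at 0 h. Neutrophil markers summed to 5946 to 10667 at 16 h and 4184 to 17176 at 0 h, with S100a8 (0.26, adjusted p = 0.559) not called. The granulocyte receptor Csf3r fell by 0.48 ± 0.12 (adjusted p = 0.0211). That call was lost without SR-A mutant 0 h replicate 1, with all 30 arrays and without the filter on dim probe sets. Another Csf3r probe set, dim and not tested, went the other way (0.5), with 5 of its 0 h arrays at the floor. Plasma cell markers, summed over both genotypes' arrays, ran from 1799 to 13731 at 16 h and from 592 to 16215 at 0 h, and none was called in the shared change. Of 6 B and plasma cell genes, 4 rose and 1 fell in wild type (median 2.5), where 5.4% of all genes rose and 4.96% fell. In SR-A mutant none of the 6 was called (median -0.55). The difference between genotypes was called for 1 of the 6, so the shared change averages unlike genotypes here. The part of these cells in the rises above was not tested.

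Other large rises were those of the transferrin receptor Tfrc, the prostaglandin E receptor Ptger2, the AMP deaminase Ampd3 and the dipeptidase Dpep1. Tfrc read 890.2 to 1401.2 at 16 h and 309.2 to 529.5 at 0 h (1.36 ± 0.14, adjusted p = 0.000152), but its brighter probe set gave 0.43 (adjusted p = 0.173). Ptger2 rose by 1.17 ± 0.15 (adjusted p = 0.00056) and Ampd3 by 1.12 ± 0.17 (adjusted p = 0.00168). Dpep1 read 526.9 to 796.4 at 16 h and 47.6 to 437.0 at 0 h, with 1 of the 0 h arrays at the floor, so that its change of 1.26 ± 0.24 (adjusted p = 0.00754) depends on that floor. The cathepsins Ctsl (0.74 ± 0.12, adjusted p = 0.00271) and Ctsh (0.43, adjusted p = 0.0474) were the 2 called of 24 lysosomal genes, and Ctsh lost its call in 10 of 12 fits that left out 1 array.

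Few sensory neuron genes were called at 16 h. Of 9 mature neuron genes none was called (median -0.03), and Omp stood at -0.09 ± 0.09 (adjusted p = 0.532). None of the 7 tested olfactory receptor genes was called (median -0.08). Of 13 immature neuron genes, Stmn4, a microtubule regulator of growing neurites, rose and the actin-binding Marcks fell (-0.31 ± 0.07, adjusted p = 0.0225), while Gap43 of growth cones did not pass (-0.21 ± 0.13, adjusted p = 0.354). Stmn4 read 8545.4 to 12808 at 16 h with a median of 10288, and 4105.2 to 5663.9 at 0 h with a median of 4754.8. Its change of 1.09 ± 0.08 (adjusted p = 1.45e-05) came with no overlap. Syt1, the calcium sensor of synaptic vesicles, fell by 0.56 ± 0.13 (adjusted p = 0.0178), the 1 call among 12 vesicle genes.

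A few non-neuronal epithelial genes rose by small amounts. The progenitor and sustentacular transcription factors Sox2 (0.57 ± 0.12, adjusted p = 0.0107) and Pax6 (0.38 ± 0.08, adjusted p = 0.0114) rose among 12 progenitor genes, each with overlapping arrays. Sustentacular keratins Krt18 (0.36 ± 0.08, adjusted p = 0.0148) and Krt8 (0.37 ± 0.10, adjusted p = 0.0318) rose too, and Krt8 lost its call in 8 of 12 fits that left out 1 array. Sult1c1, a sulfotransferase of sustentacular cells, did not pass (0.03, adjusted p = 0.923). Of 22 cell cycle genes only Pold2, a DNA polymerase subunit, was called (0.94 ± 0.24, adjusted p = 0.03), and it lost the call in 6 of 12 fits that left out 1 array, namely whenever that array was a wild type one.

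Each genotype was then tested alone, on 3 arrays against 3. In SR-A mutant 390 probe sets were called (5.87%) and in wild type 709 (10.7%). The SR-A mutant count was 230 without 0 h replicate 1, 175 without 0 h replicate 3, 244 without 16 h replicate 2 and 222 without 16 h replicate 3. The wild type count was 400 without 0 h replicate 1, 359 without 0 h replicate 3, and 367, 465 and 411 without 16 h replicate 1, 2 or 3. The 2 comparisons contrast different arrays but share that estimate of spread, so their calls are not independent. Of these calls 125 were common, 32.1% of those in SR-A mutant and 17.6% of those in wild type, and 115 of the 125 had the same sign. Across all tested probe sets the changes of the 2 genotypes correlated with r = 0.28, a description over probe sets, which are not independent replicates. Calb1 changed by -3.23 in SR-A mutant and -3.44 in wild type, Ptgr1 by 2.06 and 1.92, and Stmn4 by 1.09 and 1.10. Among the lists, immediate early genes fell in 10 cases in SR-A mutant and 8 in wild type, heat shock genes in 5 and 4, and matrix genes in 7 and 7, where 3.18% of all genes fell in SR-A mutant and 4.96% in wild type. Macrophage genes rose in 0 of 11 cases in SR-A mutant and 6 of 11 in wild type, where 2.85% of all genes rose in SR-A mutant and 5.4% in wild type, but the difference between genotypes was called for none of the 11.

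The difference between the genotypes was tested directly. It was called for 89 probe sets (1.34%), and 1427 had an unadjusted p under 0.05. In 77 of the 89 the 2 genotypes changed in opposite directions. A called difference was carried by 8 of the 681 shared calls, 1.17% beside the 1.34% of all tested. The shared fit has no term for the difference, which therefore widens its spread and makes a shared call less likely. The count of 8 thus does not measure how far the genotypes agree. Lcn2 and Fos were among the 8. Lcn2 rose by 3.80 ± 0.16 in SR-A mutant and by 2.24 ± 0.16 in wild type, and the plot of signals by array shows that the 0 h arrays set the genotypes apart while the 16 h arrays did not. Fos fell by 3.09 ± 0.20 in SR-A mutant and by 1.66 ± 0.20 in wild type. Lcn2 and Fos kept the same direction in both genotypes. Without single arrays the count of 89 ranged from 9 to 81, and it was over 1.5-fold lower without any of SR-A mutant 0 h replicates 1 (56) and 3 (9), SR-A mutant 16 h replicates 1 (26), 2 (44) and 3 (35), wild type 0 h replicates 1 (18) and 3 (20), and wild type 16 h replicates 1 (35) and 3 (20).

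**Figure D3:**
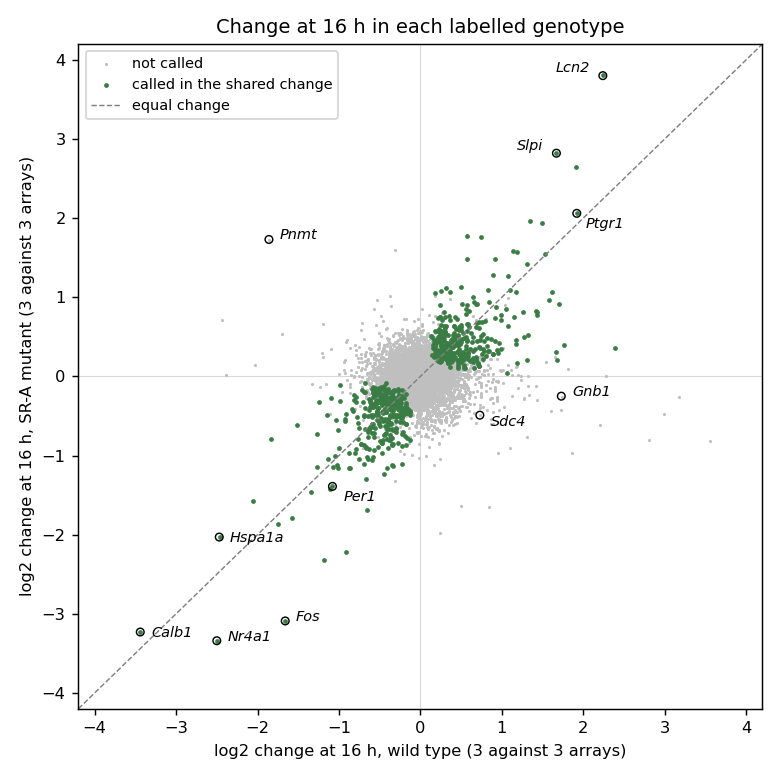
Log2 change at 16 h in wild type (horizontal) and in SR-A mutant (vertical) of the 6643 tested probe sets, with those called in the shared change in green, named genes ringed and the line of equal change dashed. Calb1, Hspa1a and Ptgr1 lie near that line, Lcn2, Slpi, Nr4a1 and Fos lie on the side of a larger change in SR-A mutant, and Pnmt, Gnb1 and Sdc4 have changes of opposite sign; the difference was called for Lcn2, Fos, Pnmt, Gnb1 and Sdc4.

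To place 16 h among its neighbours, 16 h arrays were tested against those at 8 h and 48 h, tests that use the same 16 h arrays as the comparison with 0 h and were fitted on the 24 arrays at 0, 8, 16 and 48 h. One of the 8 h arrays, wild type 8 h replicate 3, stood apart in several genes. It read 3740.3 for Nr4a1 against 928.6 and 750.1 on the other wild type 8 h arrays, 2750.8 for Per1 against 763.1 and 830.6, and 5808.9 for Lcn2 against 19245.7 and 18943.7. Its Nr4a1 and Calb1 signals lay inside or above the 0 h range and its Hspa1a signal, 2049.5, below it. Over all tested probe sets it correlated with wild type 0 h arrays at a mean r of 0.97 and with the other wild type 8 h arrays at 0.959. For wild type 8 h replicates 1 and 2 these values were 0.964 and 0.961 with 0 h, and 0.964 and 0.965 with their own group. By this measure replicate 3 thus differed little from them. Results against 8 h are therefore given with and without it.

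Against 8 h, 155 probe sets were called (2.33%), 75 higher (1.13%) and 80 lower (1.2%) at 16 h. Heat shock genes were lower at 16 h than at 8 h in 6 of 20 cases and immediate early genes in 7 of 23, where 1.23% of all genes were lower and 1.14% higher. Without wild type 8 h replicate 3 these counts were 10 of 20 and 4 of 23, in a total of 150 called probe sets. Hspa1a read 914.1 to 1677.9 at 16 h and 2049.5 to 18733 at 8 h, a difference of -2.76 ± 0.38 (adjusted p = 0.00029), with no 16 h array inside the 8 h range, and -3.20 ± 0.27 without that array (adjusted p = 1.76e-07). Calb1 (-2.22 ± 0.43, adjusted p = 0.00492), Atf3 (-0.95 ± 0.21, adjusted p = 0.0161) and Hmox1 (-1.39 ± 0.21, adjusted p = 0.000694) were also lower at 16 h than at 8 h, and without that array their values were -1.84, -0.81 and -1.42, all still called. Fos was lower with it (-1.35 ± 0.33, adjusted p = 0.0332) and lost its call without it (-1.13 ± 0.33, adjusted p = 0.0701). Nr4a1 (-0.95, adjusted p = 0.11), Ccn1 (-0.11, adjusted p = 0.87) and Per1 (-0.24, adjusted p = 0.693) did not pass, nor did they without that array, at -0.61, 0.12 and 0.02. The clock genes Bhlhe40, Per2 and Cry1 were lower at 16 h than at 8 h, by 0.56, 0.41 and 0.50, and were still called without that array (-0.48, -0.33 and -0.46).

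Of the rises, Ptgr1 (0.83 ± 0.18, adjusted p = 0.0149), Ccl9 (0.74 ± 0.19, adjusted p = 0.0361) and Stmn4 (0.64 ± 0.13, adjusted p = 0.00592) were higher at 16 h than at 8 h. Without wild type 8 h replicate 3, Ptgr1 (0.69) and Stmn4 (0.56) were still called and Ccl9 was not (0.66, adjusted p = 0.0759). Lcn2 (0.81 ± 0.27, adjusted p = 0.12), Slpi (0.23, adjusted p = 0.686) and Serpina3n (0.16, adjusted p = 0.72) did not pass with or without it. Yet every 16 h array of Lcn2 (20619.7 to 25855.4) was above every 8 h array (5808.9 to 19245.7). The spread in this fit also takes in the 0 h and 48 h arrays, and at 48 h the Lcn2 means were 25914.5 in SR-A mutant and 39289.6 in wild type. The count of 155 was over 1.5-fold lower without SR-A mutant 8 h replicate 1 (94), 2 (98) or 3 (73) or wild type 16 h replicate 1 (75) or 2 (99).

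Against 48 h, 635 probe sets were called (9.56%), 374 higher (5.63%) and 261 lower (3.93%) at 16 h. Mature neuron genes were higher at 16 h than at 48 h in 4 of 9 cases, where 5.73% of all genes were higher and 4.26% lower, among them Omp (0.60 ± 0.09, adjusted p = 0.000362), Adcy3 (0.85) and Cnga2 (0.63). Matrix genes were higher at 16 h in 8 of 26 cases, led by Col1a1 (1.55) and Col1a2 (1.42), and proteasome subunits in 8 of 31. Ptgr1 was 1.19 ± 0.18 higher at 16 h than at 48 h (adjusted p = 0.000289), and with its difference from 8 h it stood above both neighbours. Slpi on the probe set with the larger rise (-1.20 ± 0.24, adjusted p = 0.00306), Clu (-0.84 ± 0.16, adjusted p = 0.00209), Cd68 (-0.67 ± 0.11, adjusted p = 0.0006) and Fmo5 (-1.24 ± 0.25, adjusted p = 0.00327) were lower at 16 h than at 48 h. Fos, Nr4a1, Hspa1a, Lcn2, Stmn4 and Calb1 did not pass between 16 h and 48 h, where the fit averages the genotypes. In wild type, Lcn2 read 20828.2 to 24385.2 at 16 h and 34957.9 to 44401.7 at 48 h. Fos there read 482.4 to 805.2 and 1075.5 to 1692.6. In SR-A mutant their means were 23303.7 and 25914.5, and 396.8 and 505.3. Calb1 (-1.19, adjusted p = 0.0783) was called without wild type 8 h replicate 3 (adjusted p = 0.0344). At 48 h it read 17.6 to 100.2 in wild type and 538.1 to 710.7 in SR-A mutant.

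**Figure D4:**
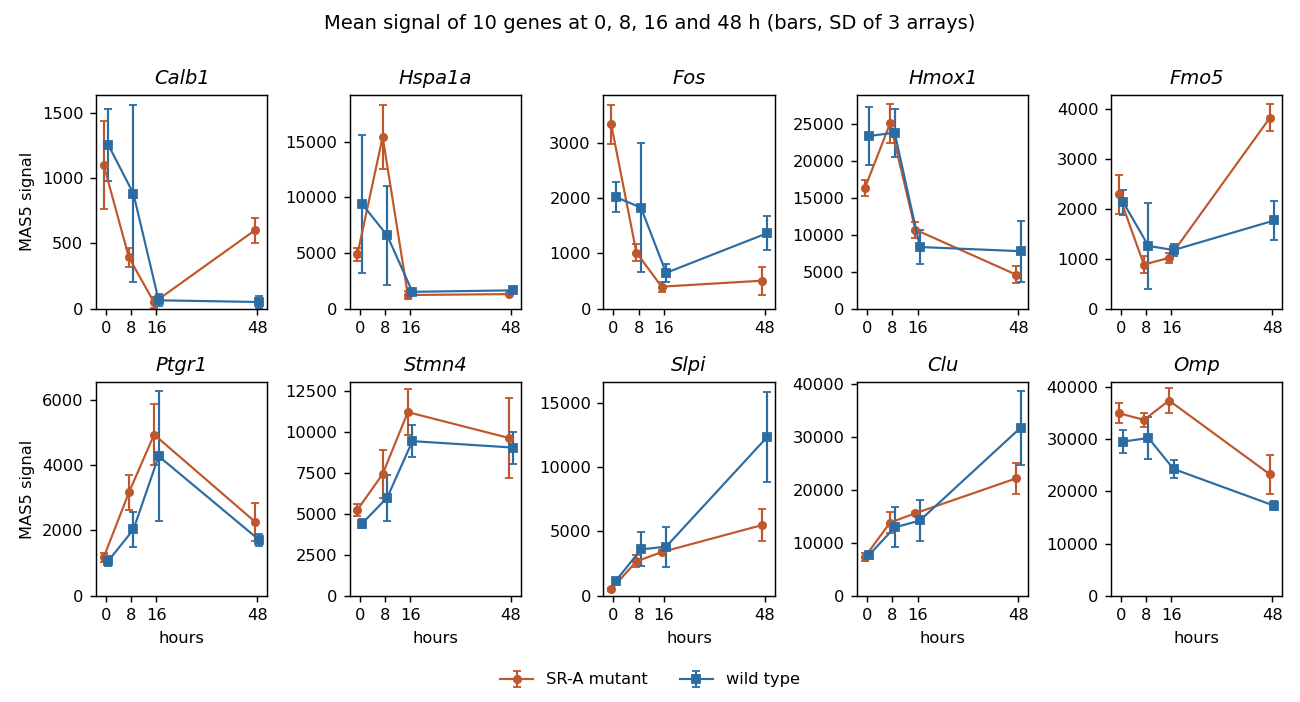
Mean MAS5 signal of 10 genes at 0, 8, 16 and 48 h in SR-A mutant (circles) and wild type (squares), with bars for the SD of 3 arrays. Hspa1a and Hmox1 were lower at 16 h than at 8 h, with wide bars for Hspa1a in wild type at 0 and 8 h, Ptgr1 was highest at 16 h, Slpi and Clu were highest at 48 h, and Omp was lower at 48 h than at 16 h.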

How the data were processed

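RNA of mouse olfactory epithelium had been hybridised to Affymetrix MG-U74Av2 arrays, 1 sample an array. The values are linear signal intensities that the authors deposited, computed with MAS5 per the submitters' processing notes, which give no version. A trimmed mean (2% off each end) lay between 1500.7 and 1500.8 on the 12 arrays, so no further scaling was applied.

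Of 12488 probe sets, 66 controls were left out. Signals under 113.7, the 25th percentile over all 30 arrays, were set to that value before taking log2, and the 6643 probe sets above the median of 572 on at least 3 arrays were tested, leaving out 5779. For gene lists the brightest probe set stood for a gene, named from GEO's platform annotation: 10833 probe sets had 1 gene, 396 several and 1193 none. Arrays give no counts, so their number limits the precision.

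Models were fitted with limma 3.58.1 in R 4.3.3 over all tested probe sets, with Benjamini-Hochberg adjusted p-values. The shared change used genotype as covariate. Each genotype's own change and the difference between genotypes came from a fit of the 4 groups, and 16 h was set against 8 h and 48 h in 1 fit of 24 arrays with genotype as covariate. The fits were tested on simulated data. Promoters were those of RefSeq (GRCm38.p6), searched on both strands with Python 3.11.15.

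Genes were named by rule. Among called probe sets with 1 gene and arrays not overlapping, these were the 12 largest rises and the 12 largest falls. Added to them were from each list, its 5 or fewer most changed called members, the 5 probe sets with the smallest p for the genotype difference, and Msr1, Omp, Gap43, Cd68, Fos, Nr4a1, Lcn2 and Calb1. Further list members are named outside the rule, after their values were seen, to complete a list's calls or show members that did not pass. The comparison, the gene lists and this rule were chosen with earlier results of these data known. One list pattern, for ribosomal proteins, was narrowed after it was seen to match a kinase. Alternatives changed the floor, filter, normalization, variance model, arrays fitted and replicate block, and left out each array in turn.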

Additional observations from a re-analysis of the deposited data

Results flagged for a closer look

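For 7 probe sets named here the change at 16 h differed between the genotypes, by limma's test of the difference itself (SR-A mutant minus wild type, log2, Benjamini-Hochberg adjusted, 3 arrays in each of 4 groups). Groups of 3 arrays were not tested for outlying arrays.

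Lcn2 rose more in SR-A mutant, by 1.56 ± 0.22 (adjusted p = 0.0136). It read 23435.9, 25855.4 and 20619.7 in SR-A mutant at 16 h against 1762.9, 1784.3 and 1464.1 at 0 h, and 24385.2, 22677.1 and 20828.2 in wild type at 16 h against 5422.3, 3686.2 and 5458.8 at 0 h. The genotypes thus overlapped at 16 h and not at 0 h. Fos fell more in SR-A mutant, with a difference of -1.43 ± 0.28 (adjusted p = 0.037). It read 463.7, 428.7 and 298.1 in SR-A mutant at 16 h against 3638.9, 3419.2 and 2945.7 at 0 h, and 653.5, 482.4 and 805.2 in wild type at 16 h against 1753.7, 2295.5 and 2002.0 at 0 h. Pold2 differed by -1.47 ± 0.27 (adjusted p = 0.0337), reading 1691.4, 1891.2 and 1363.8 in SR-A mutant at 16 h against 1350.2, 1476.9 and 1436.6 at 0 h, and 1669.9, 1409.9 and 1143.7 in wild type at 16 h against 592.7, 359.6 and 388.5 at 0 h.

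The other 4 had changes of opposite sign in the genotypes. Sdc4, a cell surface proteoglycan, differed by -1.22 ± 0.11 (adjusted p = 0.000903). One probe set of the G protein subunit Gnb1 differed by -1.99 ± 0.19 (adjusted p = 0.000933). Its shared change was 0.74 (limma adjusted p = 0.13), and those of the gene's other probe sets were 0.09 and -0.07. The genotype differences of those other probe sets are not given here. A dim probe set of Pnmt, an adrenaline-making enzyme, differed by 3.59 ± 0.41 (adjusted p = 0.0037). The nuclear receptor Esrra differed by -1.09 ± 0.14 (adjusted p = 0.00876).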

How the results depend on the processing

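The shared change gave 681 called probe sets and between 412 and 641 with each of the 12 arrays left out in turn; the other settings kept its count within 1.5 times. The wild type count of 709 was 436 with a spread estimated from all 30 arrays and 359 to 500 with an array left out. In SR-A mutant the count of 390 was 249 with all 30 arrays, 257 without a filter on dim probe sets and 175 to 296 with an array left out. The genotype difference depended most on the setting, with 89 calls against 13 with all 30 arrays, 49 without the filter, 148 with a variance trend and robust fit, and 9 to 81 with an array left out. The count for 16 h against 8 h was 155, and 73 to 153 with an array left out; that for 16 h against 48 h was 635, and 425 to 714, the highest without wild type 8 h replicate 3, an alternative chosen after seeing the data. Whether replicate numbers pair the arrays was not tested. Same-numbered arrays of different groups correlated between -0.14 and 0.36 in their deviations, and differently numbered ones between -0.33 and 0.19. Between wild type and SR-A mutant at 0 h, same numbers gave 0.2, 0.36 and 0.08 and different numbers -0.33 to 0.14. With the replicate number as a block the counts were 575 (shared), 417 (SR-A mutant), 731 (wild type), 114 (genotype difference), 135 (against 8 h) and 586 (against 48 h). Of 91 named and called probe sets, 58 kept their call under every setting in which they were tested and 67 with each array left out. None changed sign. The filter on mean signal tested 82 of the 91. Pnmt, not called (-0.07), ranged from -0.37 to 0.23 with an array left out and was above 0 whenever that array was a wild type one. The causes of these moves were not tested. Dim transcripts are limited by signal over background: 5779 probe sets were too dim to be tested.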
